A study of Mus musculus with 2 samples.

Results

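The cells described here are 263 cells from mouse small intestinal organoids that held at least 5 unique molecular identifiers (UMIs, counts of single RNA molecules) of Cyr61, F3 and Amotl2 in sum. They were 7.84% of 3353 kept cells (exact 95% Clopper-Pearson interval 6.96 to 8.81%). A barcode was kept if it had 500 or more genes, 10000 or more UMIs and no more than 20% of its UMIs from mitochondrial genes. A total of 1809 kept cells had a sum of 0 and 1281 had a sum of 1 to 4. The cells are called sum-high cells below, since the sum and not each gene was high in them. Unless said otherwise, they were compared with kept cells whose sum was 0, matched in total UMIs.

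Organoids are epithelial structures grown from intestinal stem cells in culture. The labels list 1 control sample and 1 sample treated with melatonin, each combining cells of 3 independent lines at culture day 3, and the series title names prostaglandin E2 and YAP-mediated repair as its topic. Mouse strain, age and melatonin dose are not given in the sources used here. Single-cell 3' RNA libraries were read on the 10x Genomics platform, and the 2 samples came with the same matrix of 31053 genes and 21806 barcodes.

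That matrix carries barcode suffixes 1 (12364 barcodes) and 2 (9442 barcodes), and no label ties a suffix to a treatment. The data were therefore read as 1 sample, with each suffix given apart. No control against melatonin comparison was made, no test over samples exists, and intervals cover counting error only. The suffixes shared 29 barcode sequences over all barcodes and 0 among kept cells. Kept cells had a median of 34000 UMIs in suffix 1 and 31341 in suffix 2.

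YAP is a transcriptional co-activator that enters the nucleus when the Hippo kinase cascade is low and acts through TEAD DNA-binding proteins. Cyr61, Ctgf, Ankrd1 and Amotl2 are among its widely used target genes. In the intestine YAP is needed for regrowth of the epithelium after injury, where a fetal-like program with genes such as Clu, Anxa1 and Ly6a appears. Cyr61 and F3 also respond within minutes to growth factors and stress, as immediate early genes do.

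Cyr61 (ENSMUSG00000028195) encodes a secreted matrix-associated protein, F3 (ENSMUSG00000028128) encodes tissue factor, which starts coagulation, and Amotl2 (ENSMUSG00000032531) encodes a scaffold of the angiomotin family. Edn1 (ENSMUSG00000021367) encodes endothelin-1, a secreted peptide, and was not used by the rule. The 250 bases before the start that RefSeq's promoter table gives for each gene are printed because these are the genes whose joint counts define the cells, and Edn1 follows them. They come from RefSeq on build GRCm38.p6, where all 4 genes were found, and run 5' to 3' on the gene's strand. The Amotl2 start of that table lies inside the gene as GENCODE draws it (from chr9:102716672), so its window is upstream of a later transcript start. Capitals mark GGAATG or its reverse complement CATTCC, the core bound by TEAD proteins, and TGANTCA, the core bound by AP-1.
Cyr61 (chr3:145649986-145650235, minus strand): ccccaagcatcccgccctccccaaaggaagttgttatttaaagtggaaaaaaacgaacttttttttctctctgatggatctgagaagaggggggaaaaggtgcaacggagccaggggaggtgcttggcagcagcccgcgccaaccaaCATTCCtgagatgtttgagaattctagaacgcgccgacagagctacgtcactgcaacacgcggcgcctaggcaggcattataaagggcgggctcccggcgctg
F3 (chr3:121723287-121723536, plus strand): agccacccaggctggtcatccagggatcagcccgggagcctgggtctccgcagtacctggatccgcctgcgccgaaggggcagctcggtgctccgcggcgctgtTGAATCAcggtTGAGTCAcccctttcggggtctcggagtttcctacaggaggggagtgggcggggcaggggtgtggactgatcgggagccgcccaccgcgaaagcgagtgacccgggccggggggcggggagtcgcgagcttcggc
Amotl2 (chr9:102717554-102717803, plus strand): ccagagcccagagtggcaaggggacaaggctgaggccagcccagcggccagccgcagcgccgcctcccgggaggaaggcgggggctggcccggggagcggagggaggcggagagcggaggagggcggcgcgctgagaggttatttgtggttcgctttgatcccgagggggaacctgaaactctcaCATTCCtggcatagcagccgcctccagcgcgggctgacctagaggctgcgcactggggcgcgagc
Edn1 (chr13:42301226-42301475, plus strand): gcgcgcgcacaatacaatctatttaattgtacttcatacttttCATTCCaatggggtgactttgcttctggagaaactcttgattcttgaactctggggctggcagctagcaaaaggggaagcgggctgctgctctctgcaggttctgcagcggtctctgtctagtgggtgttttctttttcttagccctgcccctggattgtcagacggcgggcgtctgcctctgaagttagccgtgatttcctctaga
In these windows the TEAD core begins 103 bases before the listed start of Cyr61, 65 before that of Amotl2 and 207 before that of Edn1, each on the CATTCC strand. The F3 window holds the AP-1 core beginning at 146 and 135 bases before the start and no TEAD core. Neither TGACGTCA nor the CArG box occurs in any of the 4 windows on either strand. Of 32851 RefSeq promoters of this length, 12.6% hold the TEAD core, 6.75% the AP-1 core, 1.55% TGACGTCA and 1.47% a CArG box. A match is a description of the letters, not of binding.

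The sum-high cells were unevenly divided between the suffixes. Suffix 1 held 51 among its 1809 kept cells (2.82%, 2.11 to 3.69%) and suffix 2 held 212 among its 1544 (13.7%, 12.1 to 15.5%). A rule on raw counts favours deep cells, and from the lowest to the highest depth quartile of suffix 2 the share was 3.89, 15.3, 14.5 and 21.2%. In suffix 1 the 4 quartiles gave 1.77, 3.76, 1.55 and 4.20%. Neither suffix rose at every step, and in both the deepest quartile had the highest share. Each kept cell was therefore also thinned to 10000 UMIs, which left no kept cell out. The expected share with at least 2 UMIs of the 3 genes was then 4.22% in suffix 1 and 14.3% in suffix 2, against 16.5% and 37.8% with the same minimum and no thinning. The gap between the suffixes thus had the same direction at 1 common depth. Which suffix was treated is not known, so the direction says nothing of melatonin.

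The values that chose the cells are given as a description. The sum had a median of 7 UMIs per cell and ran from 5 to 187. Cyr61 gave 1472 of the 2490 UMIs (59.1%), F3 gave 886 (35.6%) and Amotl2 gave 132 (5.30%). Cyr61 had a median of 5 UMIs, a highest value of 24 and was at 0 in 21 cells. F3 had a median of 1 UMI and was at 0 in 89 cells, while 1 cell held 178 F3 UMIs and the 3 highest cells held 28.8% of all F3. Amotl2 was at 0 in 184 cells and never passed 7 UMIs. As counts per 1000000 UMIs (CPM) over all of these cells, Cyr61 was at 129 CPM in suffix 1 and 144 in suffix 2, and F3 was at 66.1 and 89.5 CPM.

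At the threshold, 106 kept cells had a sum of 4 and 62 had a sum of 5. Edn1 stood at 147 CPM in the former and 171 CPM in the latter, and Hbegf, the heparin-binding EGF-like growth factor, at 222 and 253 CPM. Values on the 2 sides of the border, which were not matched in depth, were close.

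**Figure D1:**
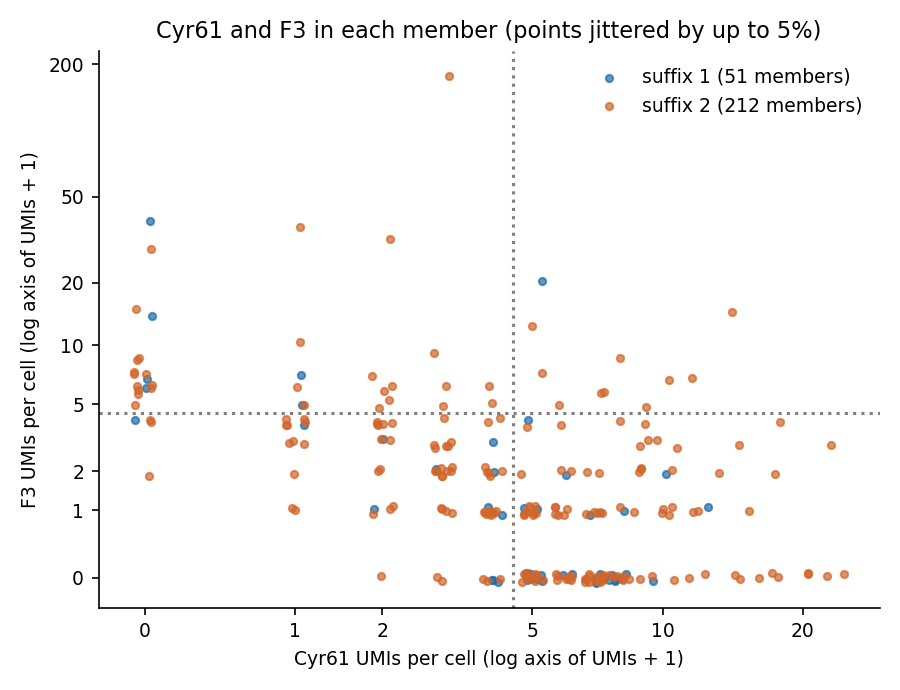
UMIs of Cyr61 (x axis) and F3 (y axis) in each of the 263 cells, both as log axes of UMIs + 1; colours give the suffix and dotted lines mark the border at 5 UMIs of either gene. A total of 139 cells lie past the Cyr61 border alone, 35 past the F3 border alone, 11 past both and 78 past neither.

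The cells were further divided by their leading gene. With at least 5 UMIs as the mark of a high count, 139 cells were high in Cyr61 alone, 35 in F3 alone and 11 in both, and 78 reached the sum with neither gene at 5. These 4 sets were formed after the values were seen, and a rule on the sum itself sets the 2 genes against each other, so their sizes say nothing of how often high counts meet. A check that avoids this takes each gene in cells chosen by the other 2 genes alone. In 57 cells with at least 5 UMIs of F3 and Amotl2, Cyr61 was at 58.0 CPM (exact Poisson interval 49.1 to 68.2), against 15.3 (10.9 to 20.9) in cells of equal depth without these 2 genes. Cyr61 was higher in both suffixes, with 45.9 against 5.41 CPM in suffix 1 (17 and 2 UMIs) and 60.1 against 17.0 in suffix 2. The suffix 1 value rests on 9 cells, of which 3 held 94.1% of the Cyr61 UMIs. F3, in 167 cells chosen by Cyr61 and Amotl2, was at 59.0 CPM (53.2 to 65.3) against 12.7 (10.1 to 15.7), although 55.8% of its UMIs were in 3 cells. It was found in 46.7% of the chosen and 21.6% of the matched cells. By suffix, F3 was at 23.5 against 7.40 CPM in suffix 1 (35 and 11 UMIs) and at 69.8 against 14.3 in suffix 2. In suffix 1, 3 of the chosen cells held 74.3% of the F3 UMIs. Amotl2, in 233 cells chosen by the other 2, was at 8.22 CPM (6.47 to 10.3) against 3.85 (2.68 to 5.35). In suffix 1 the Amotl2 intervals overlapped, with 11 UMIs against 6. Each of the 3 genes was thus higher where the other 2 were high, on few molecules for Amotl2.

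Free RNA in droplets can give UMIs in cells that do not express a gene, so the share of cells with a UMI was also read in kept cells rich in enteroendocrine markers. Those 549 cells had a median of 15810 UMIs, against 35212.5 in the other kept cells. Cyr61 had a UMI in 9.65% of them and in 35% of the other kept cells, and F3 in 5.83% and 24%. For Amotl2 the shares were 12.9% and 11.3%, and its level was higher in the enteroendocrine-rich cells (9.70 CPM) than in the others (3.98 CPM). Amotl2 was therefore also found in cells outside the set described here.

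For the comparison of all other genes, 260 of the 263 cells were paired with a cell of the same suffix, a sum of 0 and total UMIs within 10%. No partner was found for 3 cells of suffix 2, the deepest of which held 124906 UMIs. The paired groups had medians of 36142 and 36115.5 UMIs, 5185.5 and 5267.5 genes, and 8.70 and 8.99% mitochondrial UMIs. A gene was called when the ratio of summed CPM (pseudocount 1 CPM) was at least 1.5-fold, the Poisson intervals were apart and the direction was the same in each suffix. Of 10338 genes with at least 50 UMIs, 344 were called higher (3.33%) and 330 lower (3.19%), 6.52% in all. The median log2 ratio of these genes was -0.05. Counts for gene lists are to be read against these shares, and a call describes these cells and carries no p-value.

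Edn1 and Hbegf, which the rule did not use, were higher in the sum-high cells. Edn1 per cell ran from 0 through a median of 1.18 to 11.8 UMIs per 10000, against 0, 0 and 7.86 in the matched cells. Its summed level was 208 CPM (199 to 217) against 57.9 (53.3 to 62.8), a log2 ratio of 1.83. Edn1 was at 180 against 68.1 CPM in suffix 1 and at 215 against 55.4 in suffix 2. Cells with an Edn1 UMI made up 78.8% of the one group and 41.5% of the other, and 10.2% of the enteroendocrine-rich kept cells. Hbegf, a ligand of the EGF receptor, ran from 0 through 2.61 to 12 UMIs per 10000, against 0, 0.61 and 9.70. Its summed level was 293 CPM (283 to 304) against 97.4 (91.4 to 104), a log2 ratio of 1.58, with 226 against 73.6 in suffix 1 and 310 against 103 in suffix 2. Single cells of the groups overlapped for both genes. The shares with a Hbegf UMI were 97.7%, 73.8% and, in the enteroendocrine-rich cells, 49.2%.

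Over all kept cells Edn1 followed the sum step by step. These steps were not matched in depth, and the median rose from 25524.5 UMIs at a sum of 0 to 50070 at 20 or more in suffix 2. In suffix 1 it was at 71.1, 96.4, 171, 223 and 299 CPM for sums of 0, 1 to 4, 5 to 9, 10 to 19 and 20 or more, the last 2 steps resting on 4 and 2 cells. In suffix 2 the same steps gave 48.4, 118, 187, 218 and 497 CPM. The 497 CPM rested on 12 cells, of which 3 held 66.7% of the Edn1 UMIs. For the last 3 steps of suffix 1 the Poisson intervals were 152 to 191, 158 to 304 and 192 to 445 CPM, so neighbouring steps overlapped. Hbegf went from 85.8 CPM at a sum of 0 to 222 at 5 to 9 in suffix 1, and from 112 to 299 in suffix 2. Past 10 UMIs Hbegf had no single order, with 187 CPM in the 2 highest cells of suffix 1.

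**Figure D2:**
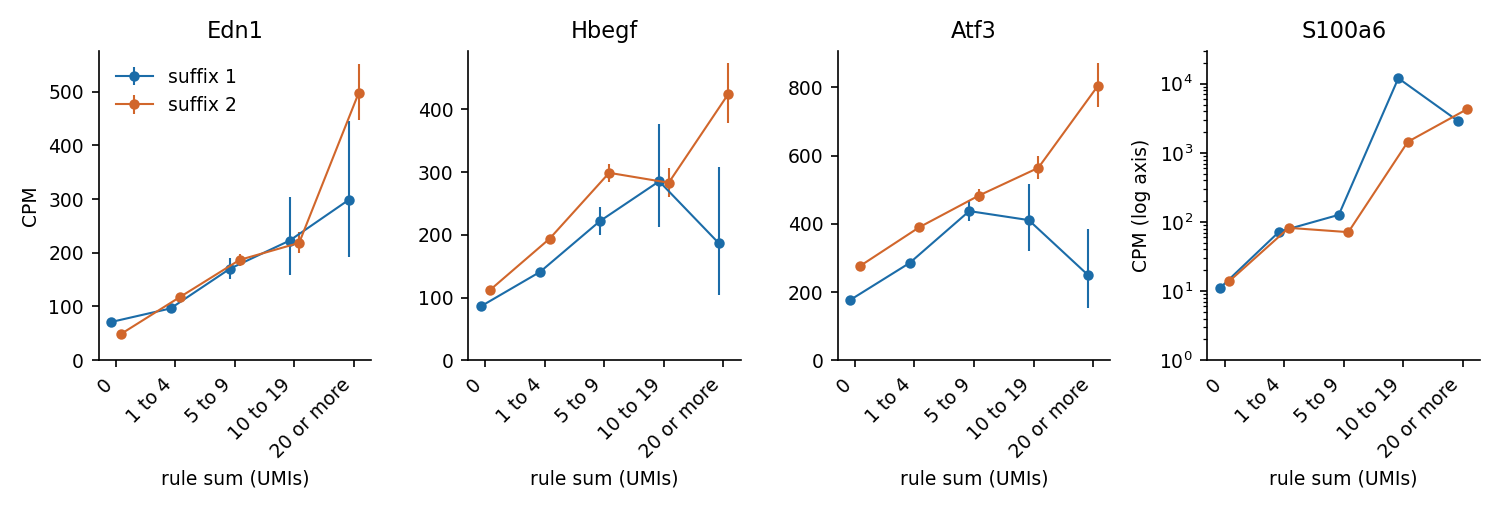
Summed CPM of Edn1, Hbegf, Atf3 and S100a6 (y axes, linear except S100a6, which is logarithmic) in kept cells by the UMI sum of Cyr61, F3 and Amotl2 (x axes), for each suffix; bars are exact 95% Poisson intervals. The Edn1 value is higher at each step in both suffixes, from 48.4 to 497 CPM in suffix 2, where the last step holds 12 cells. In suffix 1 the intervals of neighbouring steps overlap among the last 3.

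Immediate early genes, which are switched on within minutes of a stimulus, were called higher nearly throughout. Of 25 in the list, all tested, 23 were called higher and 0 lower, with a median log2 ratio of 0.72. The list's sum ran from 7.89 through a median of 58.1 to 255 UMIs per 10000 in the sum-high cells and from 3.19 through 29.2 to 239 in the matched cells, so the ranges overlapped while the medians lay apart. Fos, a subunit of AP-1, was at 764 against 370 CPM (log2 1.04). Atf3, a stress-induced factor, was at 507 against 215 CPM (1.24), and Jun was at 1047 against 615 CPM (0.77). Fosl1, another AP-1 subunit, had the largest ratio of the list at 11.9 against 1.90 CPM (2.16), with 34.7% of its UMIs in 3 cells. Klf6 stood at 379 against 212 CPM (0.83) and Ier3 at 83.1 against 28.0 CPM (1.53). The 2 genes not called were Ier5 (0.34) and Mcl1 (0.15). The count of 23 fell to 12 when the cells were chosen by UMIs per 10000, and to 15 when the deepest 5% of cells were left out or when CPM was averaged over cells, while the median stayed between 0.59 and 1.12 in all 25 alternatives run.

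Some EGF family ligands and feedback genes of the ERK pathway were called higher as well. Areg, amphiregulin, was at 494 against 222 CPM (log2 1.15), and with Hbegf made 2 of 4 tested ligands called higher. Btc (0.29) and Tgfa (0.28) were not called, and the other 4 of the 8 ligands had too few UMIs. Of 17 tested receptors and feedback genes 6 were called higher and 0 lower. They were Spry1, an inhibitor of receptor tyrosine kinase signalling, at 28.2 against 9.78 CPM (1.44), the phosphatases Dusp5 (0.67) and Dusp6 (0.93), Errfi1 (0.68), Phlda1 (1.20) and Epha2 (1.10). Egfr stood at 10.6 against 8.08 CPM (0.36) and was not called.

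Of 11 tested NF-kB genes and chemokines 7 were called higher and 0 lower, with a median log2 ratio of 0.84. Nfkbia, the inhibitor that NF-kB itself induces, was at 251 against 132 CPM (0.92), and Tnfaip3, another feedback inhibitor, at 14.0 against 5.49 (1.21). Cxcl10 was at 68.9 against 18.4 CPM (1.85) and Cxcl16 at 42.6 against 10.5 (1.93), with 20.9% and 28.6% of their UMIs in 3 cells. The Cxcl10 ratio was 0.76 in suffix 1 (51.6 against 30.0 CPM) and 2.17 in suffix 2 (73.1 against 15.5), and that of Cxcl16 3.38 and 1.67. Ccl20 was at 65.5 against 24.2 CPM (1.40), but 52.5% of it lay in 3 cells.

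Few of the other YAP targets were detected well enough to be compared, and most of those that were did not pass the call. Of 20 further targets 6 had at least 50 UMIs, of which 1 was called higher, with a median of -0.07. Ajuba, a LIM protein of the Hippo pathway, was at 5.31 against 1.90 CPM (log2 1.12), with 46.3% of its UMIs in 3 cells. Gadd45a (0.24), Dock5 (-0.00), Crim1 (-0.14), Asap1 (-0.15) and Nuak2 (-0.48) were not called. Ctgf, the classical target beside Cyr61, stood at 2.46 CPM against 0.20 and was too low to be tested, with 68.0% of its UMIs in 3 cells. Ankrd1 stood at 3.84 against 0.10 CPM, and all 39 of its UMIs were in 1 cell. The sign of the median changed with the setting. It was -0.39 without the revival-rich cells defined below (0 of 5 called), 0.27 without enteroendocrine-rich cells and 0.21 without cells rich in 2 lineages (1 of 6 called in each). With a sum of at least 10 it was 0.48 (0 of 2 called), and with a minimum of 10 UMIs per gene 0.12, with 3 of 14 called higher. Beyond the 3 genes of the rule, a label of YAP target cells could therefore be checked on few genes.

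Of 16 tested Hippo pathway genes 1 was called higher and 0 lower, with a median of -0.24. Wwc1, which encodes the upstream regulator Kibra, was at 36.4 against 20 CPM (log2 0.84). Yap1 itself was at 23.1 against 24 CPM (-0.05), and Tead1 at 17 against 19.2 (-0.16). The kinase genes Lats1 (-0.22), Stk3 (-0.42) and Stk4 (-0.41) had lower values and were not called. RNA levels carry no information on where the YAP protein was.

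Genes of the fetal-like and revival program had the largest ratios, and a few cells carried them. Of 12 tested genes 10 were called higher, with a median log2 ratio of 2.28, and the other 4 of the 16 in the list had too few UMIs. S100a6, a calcium-binding protein, was at 796 against 16.5 CPM (5.51), Anxa1, an annexin, at 52.4 against 0.70 (4.97), and Clu, clusterin, at 21.1 against 2.0 (2.88). Their 3 highest cells held 59.6%, 51.9% and 50% of these UMIs. Per cell, the sum of Clu, Anxa1, Anxa3, S100a6 and Ly6a had a median of 0 in both groups, and its highest value was 512 UMIs per 10000 in one and 6.75 in the other.

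Cells with at least 5 UMIs per 10000 of these 5 genes were named revival-rich after the values were seen. There were 21 among the 263 cells (7.98%, 5.01 to 11.9%), 4 among the 260 matched cells (1.54%, 0.42 to 3.89%) and 66 among all kept cells. Suffix 1 gave 8 of its 51 cells and suffix 2 gave 13 of its 212. Turned around, the 263 cells took in 31.8% of all revival-rich cells, 23.5% in suffix 1 (8 of 34) and 40.6% in suffix 2 (13 of 32). The 21 cells held 97.1% of the S100a6, 96.4% of the Anxa1, 97.9% of the Ly6a and 99.6% of the Msln UMIs of the 263 cells. S100a6 was at 7665 CPM in these 21 and at 28.8 CPM in the other 242. With revival-rich cells left out of both groups, 4 of 8 tested genes of the list were called, the median was 0.83, and the number of all genes called higher was 192 instead of 344. Immediate early genes still had 20 of 25 called higher (median 0.71).

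Cldn4, a tight junction protein, and the membrane proteins Emp1 and Emp2 had the smallest shares in the revival-rich cells among the 15 genes of that list with any UMI. Cldn4 was at 118 against 31.4 CPM (log2 1.88) and was found in 182 of the 260 cells against 114 matched cells. Of its UMIs in the 263 cells 43.7% were in the 21 revival-rich ones, of Emp1 44.4% and of Emp2 37.5%. The same 21 cells held smaller shares of the ligand genes, with 20.3% of Edn1, 8.18% of Hbegf and 34.5% of Areg.

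**Figure D3:**
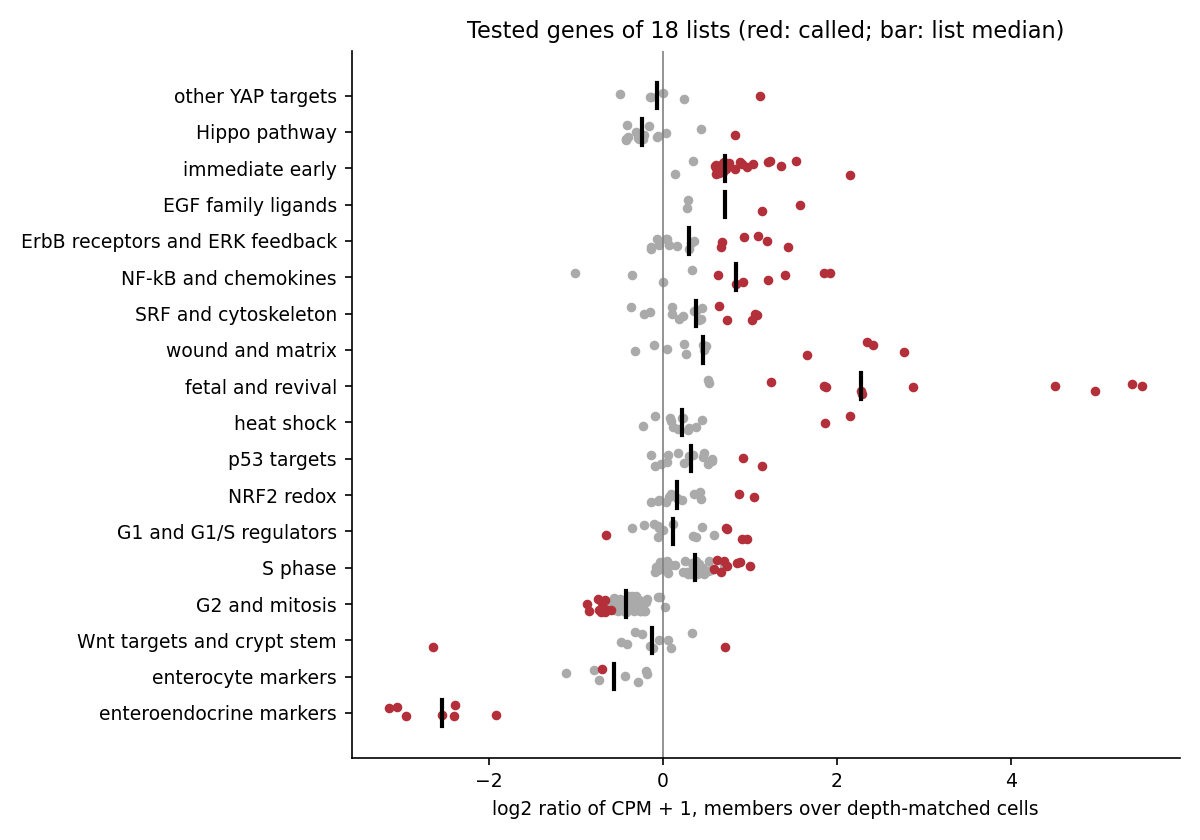
Log2 ratio of CPM + 1, sum-high over matched cells (x axis), of each tested gene (point) in 18 gene lists (rows); called genes are red and black bars are list medians. The immediate early genes lie to the right of 0 with 23 of 25 called, the further YAP targets scatter around 0 with 1 of 6 called, and the enteroendocrine markers lie to the left.

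Among epithelial genes the simple keratins were higher while the general markers were level. Krt18 was at 1302 against 633 CPM (log2 1.04), Krt19 at 1261 against 607 (1.05) and Krt8 at 2182 against 1228 (0.83). The 21 revival-rich cells held 32.6% of the Krt18 and 39.4% of the Krt19 UMIs of the 263 cells. In the other 242 cells Krt18 was at 1036 CPM and Krt19 at 900 CPM. With revival-rich cells left out of both groups the log2 ratios were 0.75 and 0.60, and both genes were still called, Krt19 close to the 1.5-fold border. Epcam (-0.10), Cdh1 (0.09), Cldn7 (0.12) and Vil1 (0.07) were not called. The sum of these 7 markers was above 0 in all cells of both groups. Markers of other tissues were at or near 0: Ptprc, Cd3e, Adgre1, Cdh5, Kdr, Tek, Col1a2, Col3a1 and Dcn had 0 UMIs in both groups. Acta2 had 0.10 CPM in the sum-high cells. The exception was Vim, vimentin, at 5.81 against 31.1 CPM (-2.24), with 50.3% of the matched cells' UMIs in 3 cells.

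Of 17 tested genes of the cytoskeleton and serum response factor list 5 were called higher and 0 lower (median 0.38). Zyx, a focal adhesion protein, was at 32.2 against 15.3 CPM (log2 1.03) and Fhl2 at 75.2 against 47.7 (0.65). Cnn2 (1.09), Filip1l (1.06) and Flna (0.74) were the other 3, while Actb (0.10), Tpm1 (0.38) and Vcl (0.36) were not called. Of 12 tested wound and matrix genes 4 were called higher. Among them Plaur, the urokinase receptor, was at 27.7 against 3.19 CPM (2.77), Thbs1 at 13.4 against 1.70 (2.42) and Plat at 11.6 against 2.99 (1.66). Of the Plaur UMIs 38.8% were in 3 cells, and of Thbs1 18.4%. Cd44 was at 27.5 against 34.3 CPM (-0.31).

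Stress lists were narrower. Of 14 heat shock genes 2 were called higher, Hspa1a at 252 against 56.0 CPM (log2 2.15) and Hspa1b at 146 against 39.5 (1.86). Both ratios were larger in suffix 1, at 3.39 for Hspa1a and 3.14 for Hspa1b, than in suffix 2, at 1.88 and 1.59. These 2 are near-identical copies, so the split of reads between them is uncertain. The other 12, among them Hsp90aa1 (0.39), Dnajb1 (0.45) and Hspa8 (0.23), were not called, and the list median was 0.23. Of 16 p53 targets 2 were called, Plk2 (1.14) and Pmaip1 (0.92), while Cdkn1a was at 145 against 97.9 CPM (0.56). Of 13 redox genes 2 were called, Hmox1 (1.06) and Slc7a11 (0.87), and of 7 tested interferon genes 1, Ifi27 (0.67).

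For the prostaglandin axis that the series names, 6 of 11 genes could be tested and 2 were called higher. Ptger4, a prostaglandin E2 receptor, was at 10.4 against 6.49 CPM (log2 0.61). Ptgs2, the inducible cyclooxygenase, had 7.09 CPM against 0 UMIs in the matched cells, and 84.7% of it was in 3 cells. Ptges3 (-0.08), Ptges2 (0.27), Hpgd (0.24) and Slco2a1 (-0.27) were not called.

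The cell cycle lists pointed in opposite directions. Summed S phase genes were at 1865 CPM (1838 to 1891) against 1485 (1461 to 1509), a log2 ratio of 0.33, and 8 of 43 were called higher and 0 lower. These were the replicative helicase genes Mcm2 (0.67), Mcm3 (0.85), Mcm5 (0.62), Mcm6 (0.74) and Cdc45 (0.71), the chromatin assembly gene Chaf1b (0.89), the DNA repair gene Ung (1.0) and Casp8ap2 (0.60), which had 44 UMIs in each group of suffix 1. Summed G2 and mitosis genes were at 5076 CPM (5033 to 5120) against 6690 (6640 to 6741), a log2 ratio of -0.40, and 11 of 53 tested genes were called lower. Among them were Ccnb1, cyclin B1, at 62.5 against 105 CPM (-0.74), Cenpa at 97.2 against 179 (-0.87), Cdc20 (-0.59) and Nusap1 (-0.73).

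Per cell, the S list had a median of 16.4 UMIs per 10000 against 12.5, and the G2 and mitosis list 33.8 against 70.5. In suffix 1 the S medians had the opposite direction, with 12.5 against 14.0, and suffix 2 gave 17.4 against 12.3. The G2 and mitosis medians were lower in each suffix, with 38.1 against 73.2 and 31.3 against 69.9. Cells were sorted by whether each list was above its median over kept cells, with 18.5% of kept cells within 10% of either border. Cells above in the S list alone were 34.2% (28.5 to 40.3%) of the sum-high cells and 16.2% (11.9 to 21.2%) of the matched ones. Cells above in the G2 and mitosis list alone were 5.77% (3.26 to 9.34%) against 26.2% (20.9 to 31.9%). Suffix 2 gave 35.9 against 15.8% and 4.31 against 25.4%. Suffix 1 gave 27.5 against 17.6% and 11.8 against 29.4%, and its intervals overlapped in both cases. Cells above in neither list were 39.2% (25.8 to 53.9%) against 13.7% (5.70 to 26.3%) in suffix 1 and 30.6 against 27.8% in suffix 2. Cells above in both lists were 21.6 against 39.2% in suffix 1 and 29.2 against 31.1% in suffix 2.

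**Figure D4:**
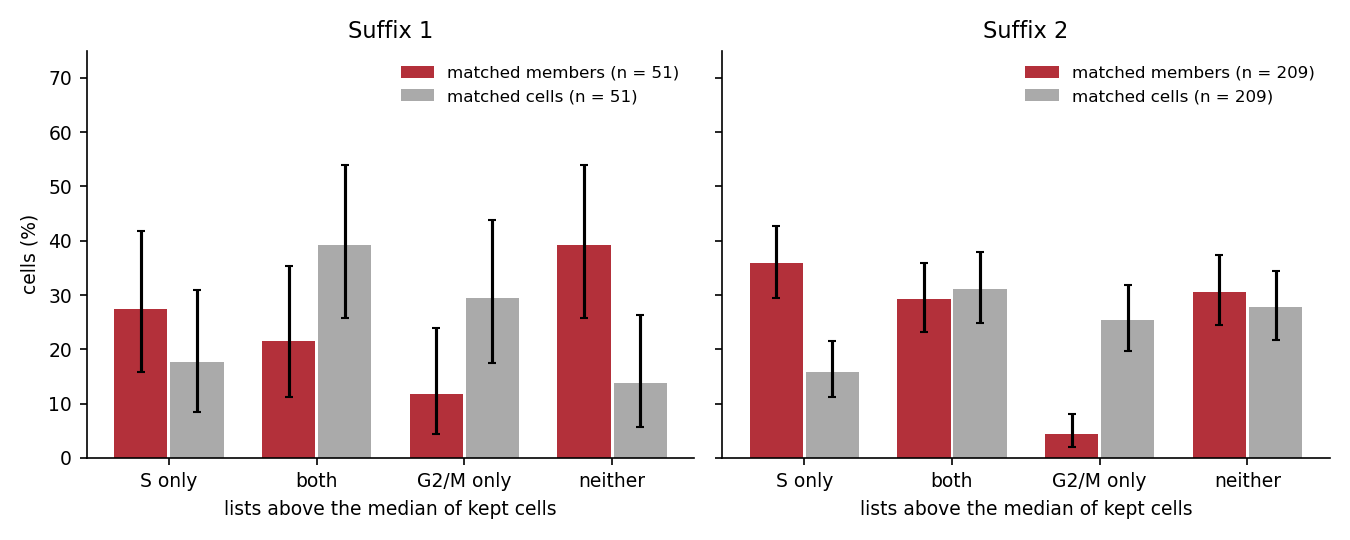
Share of cells (y axis, %) above the kept-cell median in the S phase list only, in both lists, in the G2 and mitosis list only, or in neither (x axis), for the paired sum-high cells (red) and matched cells (grey) of each suffix; bars start at 0 and error bars are exact 95% binomial intervals. Cells with the G2 and mitosis list alone are fewer among the sum-high cells, 4.31 against 25.4% in suffix 2.

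The S phase ratio changed sign between settings, while the G2 and mitosis ratio was below 0 in all 25 alternatives run. The counts of called genes moved widely for both lists. S phase genes called higher numbered 0 in suffix 1, 0 without Cyr61 in the rule, 2 with a sum of at least 3, 3 without enteroendocrine-rich cells and 15 without F3 in the rule. G2 and mitosis genes called lower numbered 3 without cells of 5 or more F3 UMIs, 5 without F3, 29 with matching across suffixes and 43 without Cyr61. In suffix 1 the log2 ratio of the S list was 0.073, and 0.39 in suffix 2, while the G2 and mitosis list gave -0.46 and -0.38. Without Cyr61 in the rule the S list turned to -0.15 and the G2 and mitosis list to -0.94. With partners matched on both lists as well the ratios were 0.088 and -0.013, as that matching intends, and 21 of 25 immediate early genes were still called higher. The number of all genes called higher was then 191. The early regulators E2f1 (0.91), Cdc6 (0.97), Cdt1 (0.74) and Ccnd1 (0.73) were called higher and Rb1 (-0.65) lower among 17 genes of G1 and G1/S. Of 7 tested cyclin-dependent kinase inhibitors and related genes Cdkn2b was called, at 18.1 against 10.1 CPM (0.79).

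Among lineage markers the enteroendocrine set was lower. All 7 tested enteroendocrine genes were called lower, with a median log2 ratio of -2.53. Chgb, chromogranin B of secretory granules, was at 236 against 2090 CPM (-3.14) and Tph1, for serotonin synthesis, at 4.04 against 38 (-2.95). Cells rich in these markers (at least 5 UMIs per 10000) made up 1.92% (0.63 to 4.43%) of the sum-high and 13.1% (9.23 to 17.8%) of the matched cells. Over all kept cells 5 of 549 such cells belonged to the sum-high cells (0.91%, 0.30 to 2.11%). With enteroendocrine-rich cells left out of both groups the median was 0.0074 with 0 genes called lower, and the number of all genes called lower was 134 instead of 330.

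Other lineages gave smaller or less even values. All 8 enterocyte markers had ratios below 0 with a median of -0.56, and 1, Sis, sucrase-isomaltase, was called lower at 174 against 282 CPM (-0.69). The suffixes differed in direction: in suffix 1 6 of the 8 were above 0 with a median of 0.24 and 2 called higher (Fabp1 stood at 0.68 and Alpi at 1.0), and in suffix 2 0 were above 0 with a median of -0.72 and 4 called lower. Goblet-rich cells were 5.0% (2.69 to 8.40%) of the sum-high and 11.9% (8.25 to 16.5%) of the matched cells. Of the Paneth markers Lyz1 was called lower at 11.9 against 29.9 CPM (-1.26), and Defa24, which has near-identical copies, was called higher (0.73) with 98.7% of its UMIs in 3 cells. Lgr5, the crypt stem cell receptor, was at 64.1 against 89.5 CPM (-0.48) and not called. Olfm4 was at 3.44 against 26.7 CPM (-2.64), with 72.0% of the matched cells' UMIs in 3 cells. Ascl2 was at 7.18 against 3.99 CPM (0.71) and called higher. Hes1, a Notch target, was at 442 against 261 CPM, but its log2 ratio was -0.12 in suffix 1 and 0.95 in suffix 2, so it was not called.

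The sets formed by the leading gene were not alike. The comparisons of these sets with their own matched cells called 5.06% of tested genes for the 139 Cyr61-led cells (2.42% higher and 2.65% lower) and 13.5% for the 35 F3-led cells (8.68% and 4.83%). For the 78 with neither gene at 5 they called 4.01% (1.55% and 2.46%). These comparisons tested 9182, 5902 and 7797 genes in sets of different size, so the shares do not measure how unlike the sets were. Revival-rich cells were 11 of 35 F3-led cells (31.4%, 16.9 to 49.3%), 5 of 139 Cyr61-led cells (3.6%, 1.18 to 8.19%), 4 of the 11 high in both (36.4%, 10.9 to 69.2%) and 1 of 78 with neither (1.28%, 0.03 to 6.94%). S100a6 was at 2323 CPM in F3-led and 372 in Cyr61-led cells, Areg at 1285 and 337, and Krt19 at 2626 and 940. A few cells weighed heavily in these levels: the 3 highest held 76.3% of the S100a6 and 49.7% of the Areg UMIs of F3-led cells and 91.4% of the S100a6 of Cyr61-led cells. In Cyr61-led cells S100a6 was at 1171 CPM in suffix 1 and 124 in suffix 2. Pooled over the suffixes, Edn1 (201 and 197 CPM), Hbegf (289 and 311) and Atf3 (514 and 536) had close levels in the same sets. In suffix 1, with 6 F3-led cells, they were further apart, with Edn1 at 80.1 CPM (48.2 to 125) in F3-led and 176 (154 to 202) in Cyr61-led cells and Atf3 at 561 and 394. Of the Edn1 UMIs of F3-led cells 53.3% were in 3 cells. These sets were not matched in depth with each other. Hspa1a went the other way, with 123 CPM in F3-led and 316 in Cyr61-led cells.

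Against their own matched cells, these sets gave different counts of called cell cycle genes, in comparisons of different size. In Cyr61-led cells 14 of 43 S phase genes were called higher and 3 of 53 G2 and mitosis genes lower. In F3-led cells 0 of 29 tested S phase genes were called higher and 4 lower, and 45 of 49 G2 and mitosis genes were called lower, with a median log2 ratio of -1.24. Mki67 was at 63.5 CPM in F3-led and 112 in Cyr61-led cells over both suffixes and at 51.1 and 115 in suffix 2, but at 135 and 101 in suffix 1, where 3 of the 6 F3-led cells held all of it. Per cell, the median of the G2 and mitosis list was 19.7 UMIs per 10000 in F3-led and 34.8 in Cyr61-led cells, and that of the S list 12.2 and 18. The matched cells of the 2 sets also differed, with G2 and mitosis medians of 81.4 for F3-led and 69.9 for Cyr61-led cells. Cells above the border in neither list were 45.7% (28.8 to 63.4%) of F3-led and 28.8% (21.4 to 37.1%) of Cyr61-led cells, and cells above in both 17.1% (6.56 to 33.6%) and 31.7% (24.0 to 40.1%). The S list alone gave 31.4% and 36%, and the G2 and mitosis list alone 5.71% and 3.6%. The intervals of the sets overlapped in all 4 classes. Immediate early genes were called higher in 17 of 22 tested in F3-led cells (median 0.99), 19 of 24 in Cyr61-led cells (0.82) and 14 of 23 with neither gene at 5 (0.65). No difference between sets was tested, since all cells came from 1 matrix.

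**Figure D5:**
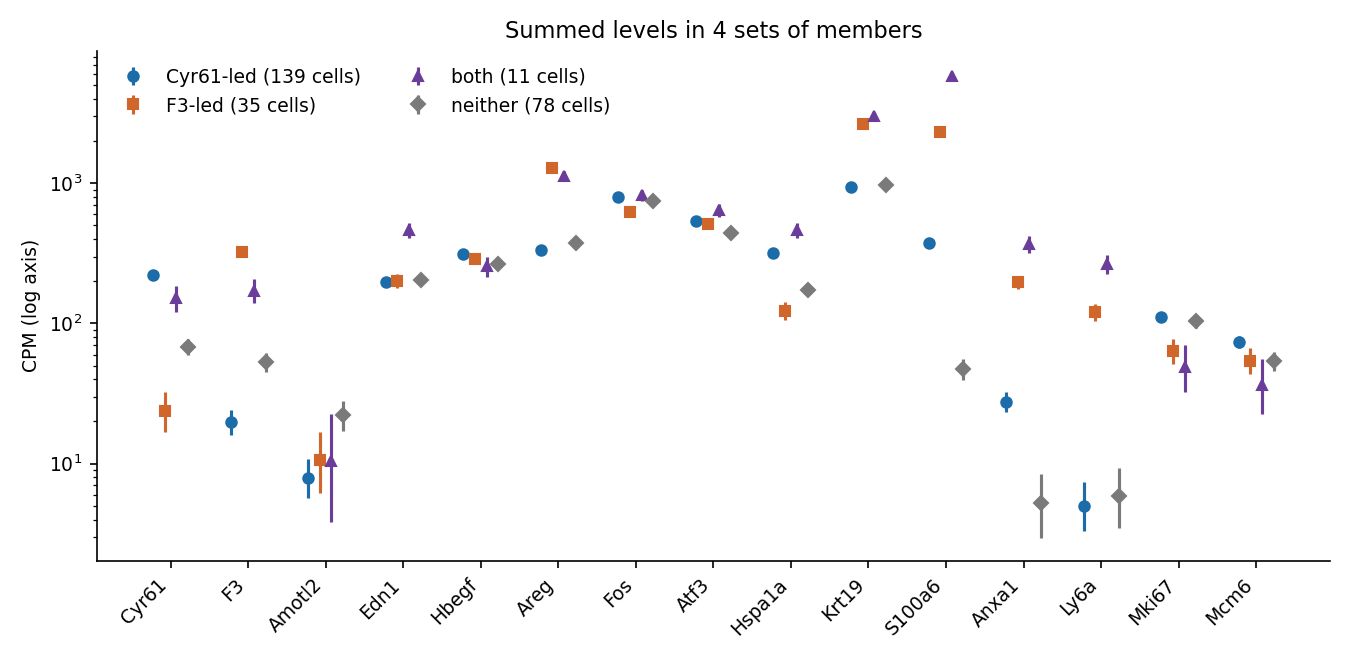
Summed CPM (y axis, log scale) of 15 genes in the 139 Cyr61-led, 35 F3-led, 11 both-high and 78 neither-high cells; bars are exact 95% Poisson intervals, within the symbol where not visible. Cyr61, F3 and Amotl2 formed the sets; Hbegf, Fos and Atf3 lie closer together, pooled over the suffixes, while S100a6, Anxa1 and Ly6a lie far apart.

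Across all tested genes, those at 20 CPM or more with under 25% of UMIs in 3 cells were ranked by ratio. The 15 highest were, in order, Hspa1a, Cldn4, Hspa1b, Cxcl10, Edn1, Hbegf, Gsn, Spry1, Tnfrsf12a, Csrnp1, Pard6b, Foxq1, Tcim, Arl14 and Atf3. Tnfrsf12a, the receptor of the cytokine TWEAK, was at 163 against 60.1 CPM (log2 1.42) and was found in 248 of 260 sum-high and 208 matched cells. Gsn, the actin-severing protein gelsolin, was at 40.6 against 13 CPM (1.58), and Pard6b, a cell polarity protein, at 38.1 against 14.5 (1.34). Foxq1, a forkhead transcription factor, was at 82.3 against 32.0 CPM (1.33). Tcim was at 115 against 47.8 CPM (1.25), Csrnp1 at 21.6 against 7.79 (1.36) and Arl14 at 26.4 against 10.6 (1.24).

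The 15 lowest were Scg5, Aplp1, Hepacam2, Cpe, Tuba1a, Neurod1, Cacna1a, Pam, Spink1, Selenom, Fxyd3, Gm5485, Slc6a19, Arfgef3 and Ddc. Several belong to hormone-secreting cells, such as Cpe, which processes prohormones, at 31.6 against 188 CPM (log2 -2.53), and the transcription factor Neurod1 at 4.53 against 28.0 (-2.39). With enteroendocrine-rich cells left out, Cpe (0.89), Pam (0.75), Fxyd3 (0.66) and Aplp1 (0.037) were above 0. Slc6a19, the neutral amino acid transporter of enterocytes, was at 12.1 against 24.7 CPM (-0.97), and Spink1, a trypsin inhibitor, at 57.0 against 140 (-1.28).

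For several called genes named above, suffix 1 by itself gave a fold more than 1.5 times away from that over both suffixes. Its log2 ratio was further from 0 for Areg (2.16 against 1.0 in suffix 2), Ccl20 (2.18 against 1.13), Gsn (3.26 against 1.28), Csrnp1 (2.21 against 1.24), Arl14 (1.93 against 1.09), Flna (1.59 against 0.53), Slc7a11 (2.76 against 0.47), Cdkn2b (2.06 against 0.54), Defa24 (2.84 against 0.71), Aplp1 (-3.42 against -2.60) and S100a6 (8.15 against 5.03). It was nearer to 0 for Chgb (-2.31 against -3.45), Neurod1 (-1.24 against -2.64), Lyz1 (-0.39 against -1.42), Sis (-0.10 against -0.87), Spink1 (-0.48 against -1.49) and Vim (-1.61 against -2.64). The same held for Scg5 (-1.81 against -2.95), Hepacam2 (-2.02 against -2.87) and Arfgef3 (-0.12 against -1.19), while Selenom was further from 0 (-1.85 against -1.09). Arfgef3 had 33 UMIs in the sum-high and 36 in the matched cells of suffix 1. Olfm4 was at -3.02 in suffix 1 and -1.73 in suffix 2. Anxa1, Clu, Plaur and Plat had at most 1 UMI in the matched cells of suffix 1, so no ratio is given for them there.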

How the data were processed

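The authors deposited 1 table of UMI counts per gene and barcode, as whole numbers without normalization, in 2 copies: the files of the control and melatonin samples are identical (3 of 3 kinds). Libraries were Chromium 3' version 3, sequenced on an Illumina NovaSeq, per the labels' protocols. The submitters' processing notes name Cell Ranger 3.1.0, STAR 2.7.3a and bcl2fastq 2.20.0; the genome build is not given in the sources used here. Depth over all barcodes was 194068573 UMIs. PCR duplicates are removed by UMIs, but intervals and limits still cover counting error only.

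Counts were read with Python 3.11.15, numpy 2.4.6, scipy 1.17.1 and pandas 2.3.3. Mitochondrial genes were those named mt-. Each chosen cell, taken from deepest to shallowest, was paired without replacement with the nearest kept cell of its suffix with a sum of 0, within 10% of its UMIs. UMIs were summed per group and scaled to CPM. Called genes had at least 50 UMIs, a 1.5-fold ratio with a pseudocount of 1 CPM, exact 95% Poisson intervals apart and the same sign in each suffix. The 3 rule genes stayed out of all counts. Named genes were those of the lists, and of all tested genes, list genes included, the 15 largest and 15 smallest called ratios at 20 CPM or more with under 25% of UMIs in 3 cells; a few genes with fewer UMIs (Ctgf, Ankrd1) and the marker genes at 0 are named outside that rule. Thinning used the hypergeometric distribution. No doublet caller was run. Leaving out the deepest 5% of cells, or cells rich in 2 lineage marker sets, were alternatives. By the cut used, 90.8% of kept cells were enterocyte-rich, so the second of these cannot single out doublets. The step was tested on simulated counts over 31053 genes for the comparison with matched cells. All 50 genes at each of 2, 0.5, 3 and 0.333-fold were called in their direction (100%), and 0.108% of unchanged genes were called. These counts were group sums drawn from the Poisson model that the intervals use, without spread between cells. The 0.108% is therefore not a rate of false calls in the real cells.

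The cells, the 36 gene lists and the alternatives were chosen with earlier results of these data known, so no list count is independent support. Promoters are RefSeq's, matched by symbol (Cyr61 as Ccn1).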

Additional observations from a re-analysis of the deposited data

Results flagged for a closer look

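Barcodes with over 20% mitochondrial UMIs, at least 10000 UMIs and 500 genes were not used in any comparison above. Of these, 31 of 1222 (2.54%, exact 95% interval 1.73 to 3.58%) held at least 5 UMIs of Cyr61, F3 and Amotl2. For a count of 0 the limit, approximated as 3 of 1222 and not exact, would have been 0.245%. The share was 1.21% in suffix 1 (8 of 662) and 4.11% in suffix 2 (23 of 560), with a median depth of 13149 UMIs over both. Summed over these barcodes the 3 genes were at 24.5 CPM in suffix 1 and 59.3 CPM in suffix 2.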

How the results depend on the processing

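No paired analysis was possible because both samples hold 1 matrix and the labels give no replicate numbers. Of 25 alternatives 3 were added after seeing the data (those on revival-rich cells and on F3). Over all 25, 60 single genes kept their call, or stayed without one, in 1310 values. They lost the call in 174, gained it in 4 and, where called in the main comparison, turned in 12. A gene not called there could change sign without being counted as turned.

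The share of high cells was 16.7% with a sum of at least 3, 1.94% with 10, 4.56% with 2 per 10000 UMIs, 1.73% without Cyr61, 5.01% without F3, 9.30% with 20000 UMIs as the minimum, 8.88% without cells rich in 2 lineages, 9.20% without enteroendocrine-rich cells and 6.56% without cells of 5 or more F3 UMIs. It was 2.82% in suffix 1 and 13.7% in suffix 2. Thinned shares were 17.6 and 33.7% for at least 1 UMI and 1.38 and 6.63% for at least 3. F3 held out with a sum of 3 gave 1.62.

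Genes called higher numbered 599 without Cyr61, 191 with cycle matching, 166 with a pseudocount of 10 CPM, 129 with a minimum of 500 UMIs, 192 without revival-rich cells and 198 without these and enteroendocrine-rich cells. Genes called lower numbered 158 without cells rich in 2 lineages, 134 without enteroendocrine-rich cells, 114 with a pseudocount of 10 CPM, 54 with 500 UMIs, 123 in suffix 1 and 152 without revival-rich and enteroendocrine-rich cells. Of all list genes 88 were called higher and 24 lower. The lower count was 13 (sum of 3), 37 (2 per 10000), 59 (without Cyr61), 37 (deepest 5% left out), 41 (matched across suffixes) and 12 (500 UMIs, with 52 higher).

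The S list ratio was reversed to -0.15 without Cyr61. Otherwise it was 0.20 (sum of 3), 0.48 (without F3), 0.36 (at most 10% mitochondrial), 0.41 (deepest 5% left out), 0.20 (2 lineages), 0.22 (enteroendocrine-rich left out), 0.24 (2 partners), 0.23 (across suffixes), 0.088 (cycle matching), 0.38 (median ratio scaling), 0.37 (mean over cells), 0.073 (suffix 1), 0.39 (suffix 2), 0.38 (revival-rich left out), 0.40 (F3 cells left out) and 0.26 (both kinds left out). The G2 and mitosis ratio, in the same order, was -0.35, -0.29, -0.36, -0.47, -0.45, -0.45, -0.36, -0.56, -0.013, -0.35, -0.43, -0.46, -0.38, -0.33, -0.29 and, for both kinds, inside its interval. It was -0.52 with a sum of 10, -0.58 with 2 per 10000, -0.94 without Cyr61 and -0.43 without Amotl2.

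The sign changes of the median over the other YAP targets are given in the results above. Of the 12 other list medians followed, those that turned were S phase (-0.16 without Cyr61), G1 and G1/S regulators (-0.0044 without cells rich in 2 lineages, -0.088 with cycle matching), wound and matrix (-0.028 with 500 UMIs) and enteroendocrine markers (0.0074 without the rich cells). Single genes called in the main comparison turned as follows. Gm5485 went to 0.26 (sum of 3) and 0.027 (at most 10% mitochondrial). Fxyd3 went to 0.12 without Cyr61, 0.60 without cells rich in 2 lineages and 0.66 without enteroendocrine-rich cells. Mcm5 went to -0.060 without Cyr61, and Ung to -0.025 with cycle matching. Without enteroendocrine-rich cells Aplp1 was at 0.037, Cpe at 0.89, Pam at 0.75 and Chgb at 0.0074, and without revival-rich cells as well Pam was at 0.34. Apart from matchings and exclusions, whose construction changes which cells are compared, the cause was not tested.

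With 51 high cells, suffix 1 limits each value given for it, and Amotl2, with 132 UMIs, supports little beyond its direction.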

Other observations

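Barcodes with at least 1000 but under 10000 UMIs and at most 20% mitochondrial UMIs were too shallow for a rule of 5 molecules, and 1 of 713 reached it. The 3 genes summed to 32.9 CPM in suffix 1 and 60.9 CPM in suffix 2 of these shallow barcodes, so the higher level in suffix 2 was also there outside the kept cells.

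The 3 cells without a partner were unlike one another. The cell with 124906 UMIs held 14 UMIs each of Cyr61 and F3, 910 of S100a6, 149 of Anxa1 and 95 of Edn1. A cell with 63380 UMIs held 31 of F3, 2 of Cyr61 and 154 of S100a6. The other, with 72501 UMIs, held 7 of Cyr61, 1 of F3 and 1 of S100a6.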
